A study of Mus musculus with 2 samples.

Results

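The genes described here encode enzymes that remove superoxide and peroxides, together with the thioredoxin and glutathione supply these enzymes draw on. They are Sod1, Sod2, Cat, Gpx1, Gpx4, Prdx2, Prdx3, Prdx4, Txn1 and Gclc, taken by gene symbol from the platform annotation with every probe set annotated to them. They made up 10 of 12393 genes with a symbol of their own and were read by 20 of 22690 probe sets. No probe set listed with several symbols included any of them.

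Transcripts of primitive haematopoietic stem cells (HSC) were compared with those of maturing HSC, both sorted by flow cytometry from mouse bone marrow after 30 min in culture and neither treated. Each population was hybridised to 1 Affymetrix array, and neither the strain and age of the mice nor the surface markers used for sorting are stated in the labels. By the labels' protocols, the RNA was first turned into a PCR-amplified, size-fractionated cDNA library cloned in a lambda phage, so each array reads the make-up of a cloned library. With 1 array per group there was no test and no p-value, and each value describes this pair of libraries.

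Superoxide leaks from respiration and from oxidase enzymes. Superoxide dismutases turn it into hydrogen peroxide, which catalase, glutathione peroxidases and peroxiredoxins then break down. Peroxiredoxins are re-reduced mainly by thioredoxin, and glutathione peroxidases by glutathione, whose synthesis begins with glutamate-cysteine ligase. Long-term HSC are known for a low content of reactive oxygen species, and loss of the control of these species impairs their capacity for self-renewal.

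Intensities are given after both arrays were brought to the same trimmed mean, and ratios are log2 of primitive over maturing HSC. A floor of 441.0, which is the median over both arrays after leaving out control probe sets, replaced lower intensities, so a ratio with 1 side at the floor is a bound. Of all genes, 8852 were above the floor on at least 1 array and are called measured. All 10 members were measured, 9 of them above the floor on both arrays. Between the probe sets of a gene the log2 ratio had an SD of 0.82 over 1318 genes. This SD measures how far probe sets on the same arrays disagree. It leaves out biological error and any technical error that all probe sets of a gene share, such as from making the libraries. Both arrays read Kit and Cd34 above the floor, as they did 6 of 9 listed surface genes of early haematopoietic cells in all. Of the 9, 4 were higher in primitive HSC (Procr, Abcg2, Thy1 and Slamf1) and 5 lower (Kit, Cd34, Tek, Cd48 and Flt3). The list was not divided into genes of more and of less primitive cells. Its counts therefore do not bear on what either population was. Ratios of the 9 genes ran from -2.37 (Flt3, a bound) to 2.61 (Procr), with Kit at -0.41 and Cd34 at -0.91. Each of the 18 bacterial hybridisation control probe sets was higher on the primitive array, with a median log2 ratio of 0.97. Scaling to them moved the median of all measured genes to -0.71, against 0.07 otherwise.

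In primitive HSC, Gpx4, Sod2 and Sod1 were higher by at least 2-fold, Gclc was lower by at least 2-fold, and the remaining 6 members lay within 2-fold. Among all measured genes 15.6% were higher and 17.6% lower by that much in primitive HSC, 33.3% in either direction. No member was 4-fold apart in either direction, against 3.45% of measured genes higher and 4.69% lower at that threshold. A ratio above 0 was found for 7 of 10 members and for 52.7% of measured genes. The members' median log2 ratio was 0.63 and that of all measured genes 0.07. After lowess the members' median was -0.02 with 5 of 10 above 0, against a median of 0.04 and 51.8% above 0 for all genes. Scaling to the hybridisation controls, which lowers all genes, gave a median of -0.35 with 3 of 10 above 0 for the members, against -0.71 and 20.9% for all genes.

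**Figure D1:**
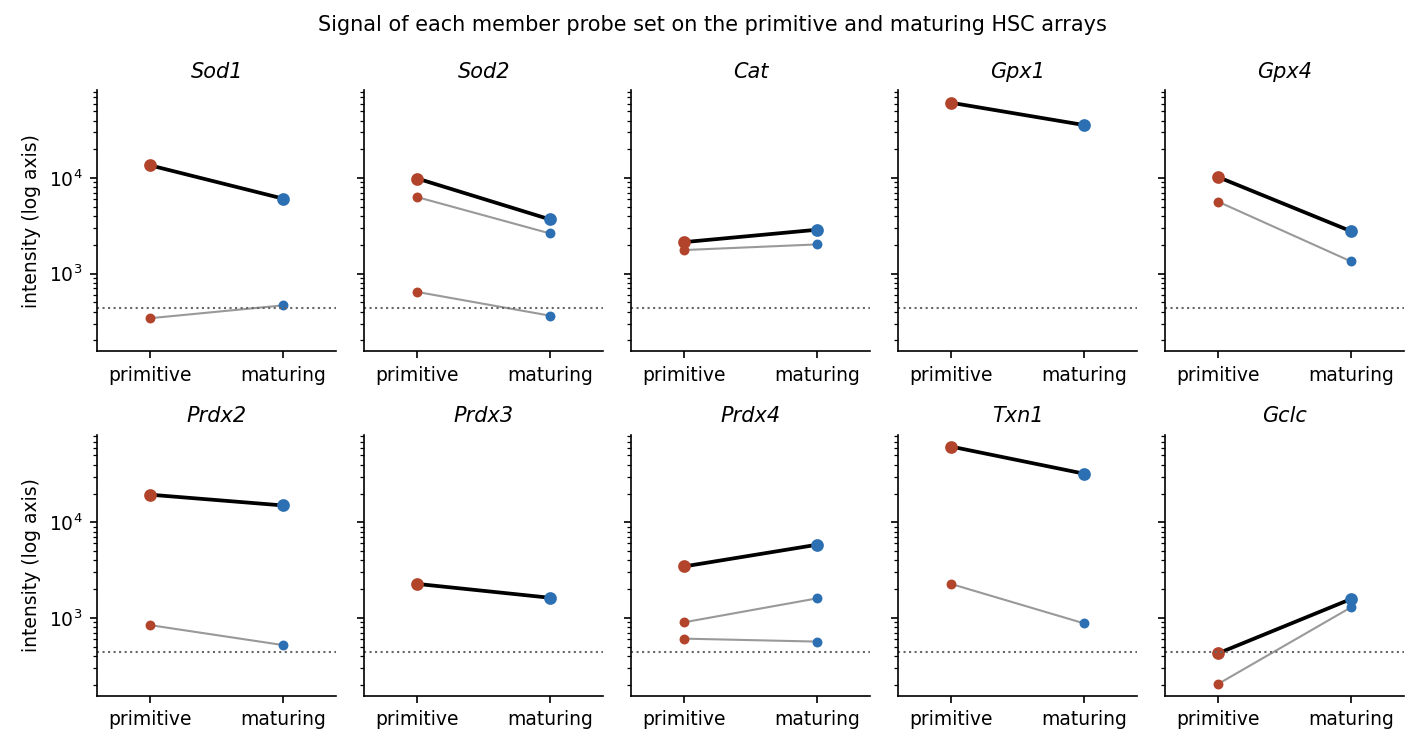
Intensity (log axis) of each probe set of the 10 genes on the primitive (red, left) and maturing (blue, right) HSC arrays. Black lines join the values of the probe set used for the gene, grey lines those of its other probe sets, and the dotted line is the floor of 441.0. Lines of Gpx4 and of Sod2 slope down from primitive to maturing HSC, and those of Gclc and Cat slope up.

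Both superoxide dismutases were higher in primitive HSC. Sod2, the manganese enzyme of the mitochondrial matrix, read 9880.0 in primitive and 3686 in maturing HSC, a log2 ratio of 1.42 or 2.68-fold. Its other probe sets read 6310.4 and 641.8 in primitive HSC, against 2629 and 362.4 in maturing HSC, so that 3 of 3 probe sets of Sod2 were higher on the primitive array. Only 7.95% of measured genes had a higher ratio than Sod2.

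Sod1, the copper and zinc enzyme of the cytosol, read 13566 in primitive and 6088 in maturing HSC, a log2 ratio of 1.16 or 2.23-fold. A weak second probe set of Sod1 read 341.2 in primitive and 464.8 in maturing HSC, close to the floor on both arrays, with a bound of -0.08. The direction of Sod1 therefore rests on 1 of its probe sets. The ratios of Sod2 and Sod1 differed by 0.27, less than the spread between probe sets.

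Catalase, the peroxisomal enzyme that breaks down hydrogen peroxide without a reducing partner, did not go the way of the dismutases. Cat read 2135 in primitive and 2877 in maturing HSC, a log2 ratio of -0.43, and its second probe set read 1763 and 2019. The Cat ratio was 1.85 below that of Sod2 and 1.59 below that of Sod1. These distances between genes do not depend on a constant that scales a whole array. Each was larger than the SD between probe sets, but that SD is for 1 ratio and not for a difference between 2. The distances do depend on lowess and on the choice of probe set. Sod1 was at 0.82 and Cat at -0.33 after lowess, and at 0.54 and -0.31 with the median of probe sets.

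The glutathione peroxidases Gpx1 and Gpx4 are selenoproteins with different substrates. Gpx4, which reduces lipid hydroperoxides within membranes and guards against ferroptosis, read 10210.4 in primitive and 2773 in maturing HSC. Its log2 ratio of 1.88, or 3.68-fold, was the highest of the 10 genes, and 4.01% of measured genes stood higher. A second probe set of Gpx4 read 5638 and 1338, a log2 ratio of 2.07, though its name marks it as able to bind several transcripts. Gpx1, the abundant cytosolic enzyme that reduces soluble peroxides, had 1 probe set, which read 61336 in primitive and 35849 in maturing HSC. Its log2 ratio was 0.77, which became -0.08 after quantile normalization, -0.11 after lowess and -0.20 with hybridisation controls as the scale.

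The peroxiredoxins went both ways. Prdx3, of the mitochondrial matrix, read 2264 in primitive and 1622 in maturing HSC, a log2 ratio of 0.48 from its single probe set. Prdx2, a cytosolic enzyme that is very abundant in red cells, read 19436 and 15003, a log2 ratio of 0.37, and its second probe set 837.9 and 518.5. Both ratios were within the spread between probe sets, and both turned negative under scaling to the hybridisation controls (-0.49 for Prdx3 and -0.60 for Prdx2), as did that of Prdx2 after quantile normalization (-0.21) and lowess (-0.20). Prdx4, which acts in the endoplasmic reticulum and passes oxidising equivalents to disulfide formation, read 3453 in primitive and 5823 in maturing HSC, a log2 ratio of -0.75. A second probe set of Prdx4 read 898.8 and 1599, and another 605.4 and 563.9, the last with a ratio of 0.10. Prdx4 lay 1.24 below Prdx3 and 1.13 below Prdx2 on the log2 scale.

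Txn1, the cytosolic thioredoxin that returns electrons to peroxiredoxins, read 61941 in primitive and 32248 in maturing HSC. Its log2 ratio of 0.94 was just under 2-fold, and a second probe set, at 2257 and 874.6, gave 1.37. The Txn1 ratio was 0.17 after quantile normalization, 0.07 after lowess and -0.03 under scaling to the hybridisation controls.

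Gclc, the catalytic subunit of glutamate-cysteine ligase, was lower in primitive HSC on both of its probe sets. It read 425.8 in primitive HSC, under the floor, and 1575 in maturing HSC, so it was at least 3.57-fold lower in primitive HSC (bound -1.84). Its second probe set read 203.9 and 1290 and gave a bound of -1.55. Both bounds are set by the floor, and with the floor at percentile 75 the bound of Gclc was -0.62.

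**Figure D2:**
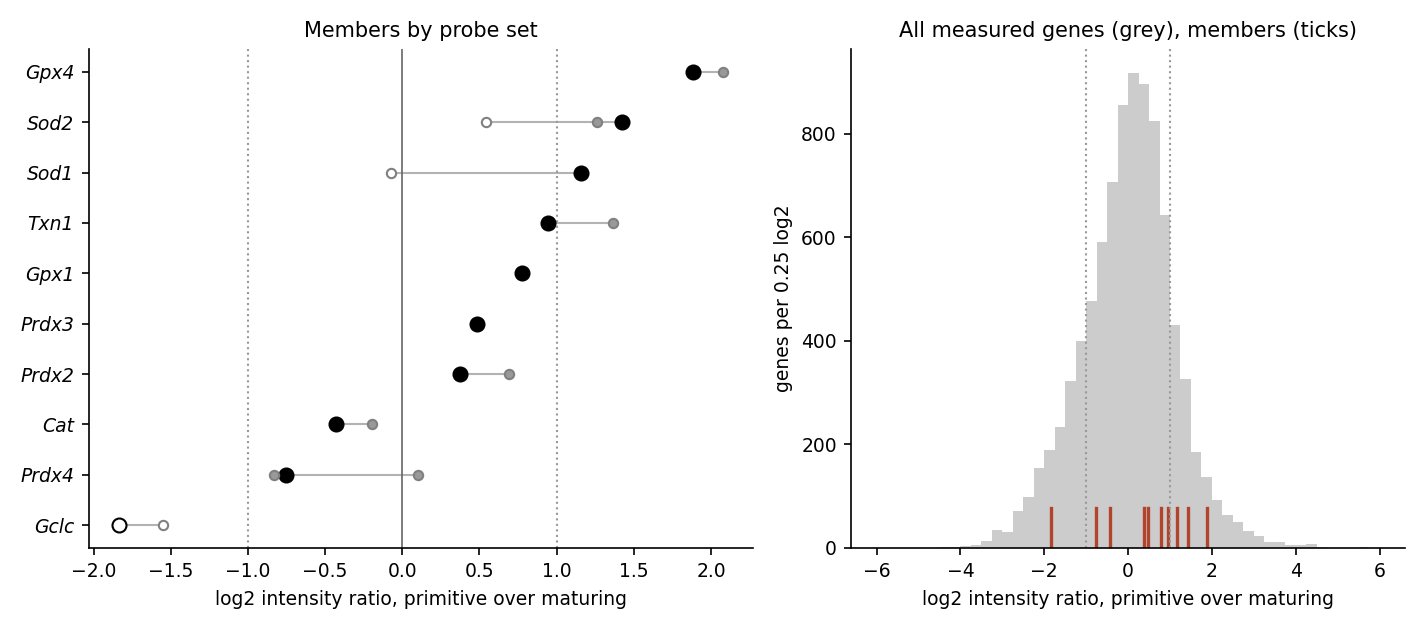
Left, log2 intensity ratio (primitive over maturing) of each probe set, with large points for the probe set used for a gene, small points for the others and open points for bounds; dotted lines mark 2-fold. Right, the same ratio for 8852 measured genes in grey, as genes per 0.25 log2, with a tick for each of the 10 genes, which run from -1.84 (Gclc, a bound) to 1.88 (Gpx4).

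In order from the highest ratio, the genes were Gpx4, Sod2, Sod1, Txn1, Gpx1, Prdx3, Prdx2, Cat and Prdx4, with Gclc placed last only by its bound. Neighbours among the 9 members with no value at the floor were all closer than the SD of 0.82 between probe sets, and the widest gap, 0.80, lay between Prdx2 and Cat. The place of Gclc depends on the floor: with it at percentile 75 its bound of -0.62 lay above the -0.75 of Prdx4. Of the 8 members with more than 1 measured probe set, 6 had all probe sets on the same side of 0, and the exceptions were Sod1 and Prdx4. Over the 20 probe sets, 13 were higher and 7 lower in primitive HSC.

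The sign of the ratio held for Gpx4, Sod2 and Sod1 (higher) and for Gclc, Prdx4 and Cat (lower) under every one of 10 alternative scalings, floors and probe set choices. Over these, Gpx4 ran from 0.91 to 1.98, Sod2 from 0.45 to 1.42, Sod1 from 0.18 to 1.16, Cat from -1.40 to -0.31, Prdx4 from -1.73 to -0.75 and Gclc from -2.34 to -0.62. For all of these genes but Gclc, the floors and leaving out probe sets named as binding several transcripts could not change the value. No rescaling and centring the median ratio barely changed it. A floor could change the bound of Gclc but could not turn it positive. The sign of the median of probe sets was already fixed by the probe set values given above. Scaling to the hybridisation controls moves all genes down, so it could not turn Cat, Prdx4 or Gclc positive. Their sign was thus tried only by quantile normalization and lowess, and that of Gpx4, Sod2 and Sod1 also by the hybridisation controls. Gpx1 and Prdx2 changed sign under quantile normalization, lowess and scaling to the hybridisation controls. Txn1 and Prdx3 did so only under the last, which moves all genes down together.

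**Figure D3:**
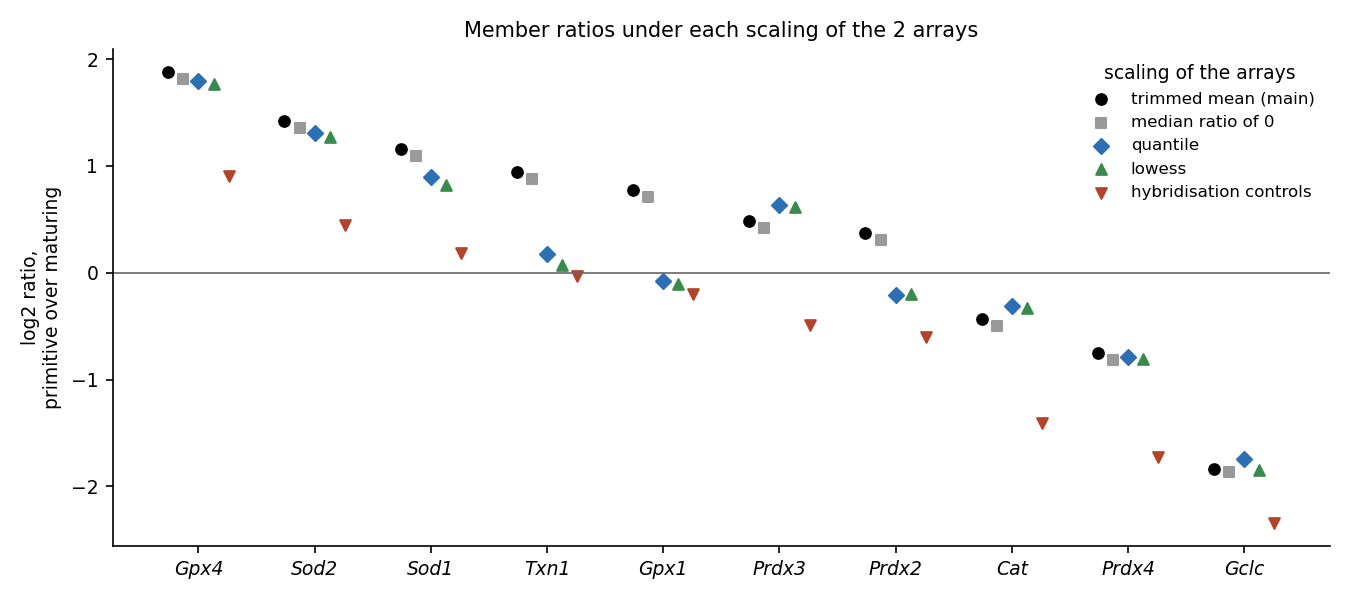
Log2 ratio (primitive over maturing) of the 10 genes, from the highest to the lowest, under 5 scalings of the arrays, each with its own marker. Gpx4, Sod2 and Sod1 stay above 0 and Cat, Prdx4 and Gclc below 0 under all 5, while Gpx1 and Prdx2 cross 0 under 3 of them and Txn1 and Prdx3 only under the hybridisation controls.

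Of 10 equal bins of genes by signal, the one with the highest signal had a median log2 ratio of 0.44. The medians of the other bins lay between -0.15 and 0.21. A total of 7 members, all but Gclc, Prdx3 and Cat, were among the 886 measured genes with the highest mean signal. The other 879 of these genes had a median log2 ratio of 0.43, with 31.4% at least 2-fold higher and 14.7% at least 2-fold lower in primitive HSC. The 7 members had a median of 0.94, with 3 at least 2-fold higher (42.9%) and 0 at least 2-fold lower. The part of signal in the ratios was not tested beyond lowess and quantile normalization, whose values stand above.

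**Figure D4:**
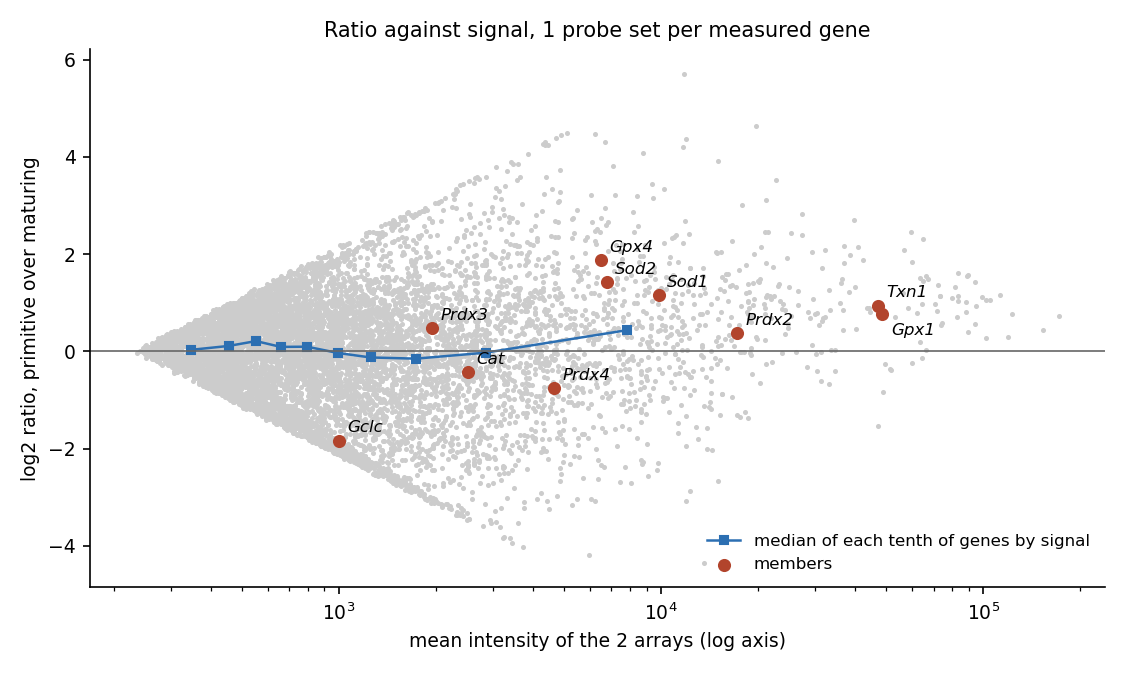
Log2 ratio (primitive over maturing) against the mean intensity of both arrays (log axis) for 8852 measured genes in grey, with the 10 genes in red. Blue squares give the median of each of 10 equal bins of genes by signal, placed at its median signal, and reach 0.44 in the bin with the highest signal, where 7 of the 10 genes lie.

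Promoter sequences were compared for the dismutase genes, which were higher in primitive HSC, and for Cat and Prdx4, which were lower. The 250 bases before the annotated start are shown 5′ to 3′ from RefSeq on GRCm38.p6, with capitals for the GC box (GGGCGG, bound by Sp1 family factors) and for the core of the antioxidant response element (TGACNNNGC, bound by NRF2 with small Maf proteins), each searched on both strands. They lie at chr16:90220512-90220761 (plus strand, Sod1), chr17:13007589-13007838 (plus strand, Sod2), chr2:103485154-103485403 (minus strand, Cat) and chrX:155338461-155338710 (minus strand, Prdx4).
Sod1: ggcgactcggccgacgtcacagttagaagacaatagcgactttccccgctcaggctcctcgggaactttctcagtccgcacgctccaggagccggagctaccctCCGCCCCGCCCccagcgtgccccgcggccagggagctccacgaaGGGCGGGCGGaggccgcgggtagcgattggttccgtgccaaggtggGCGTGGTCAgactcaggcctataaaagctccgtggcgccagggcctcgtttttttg
Sod2: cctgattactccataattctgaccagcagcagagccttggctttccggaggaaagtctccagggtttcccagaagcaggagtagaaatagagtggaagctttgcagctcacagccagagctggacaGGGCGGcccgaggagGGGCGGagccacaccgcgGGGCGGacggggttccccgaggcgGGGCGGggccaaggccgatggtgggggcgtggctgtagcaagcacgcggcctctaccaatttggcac
Cat: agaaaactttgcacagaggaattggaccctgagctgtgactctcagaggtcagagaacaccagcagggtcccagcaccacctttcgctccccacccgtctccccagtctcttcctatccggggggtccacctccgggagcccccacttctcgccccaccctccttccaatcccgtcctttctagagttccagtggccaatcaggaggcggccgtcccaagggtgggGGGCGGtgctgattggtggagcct
Prdx4: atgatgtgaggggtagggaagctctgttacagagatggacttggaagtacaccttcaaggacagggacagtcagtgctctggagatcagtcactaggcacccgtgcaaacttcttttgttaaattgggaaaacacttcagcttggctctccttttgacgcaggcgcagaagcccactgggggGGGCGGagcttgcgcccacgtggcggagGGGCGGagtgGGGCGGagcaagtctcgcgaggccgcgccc

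The table of windows matched 9 of the 10 genes, all but Gclc, with 4 windows for Gpx4. The GC box was found 4 times each before Sod1 and Sod2, where the matches in Sod1 overlap in pairs, 3 times before Prdx4 and once before Cat. At least 1 window of 7 of the 9 genes held it, all but Gpx1 and Prdx2. Of 32851 promoter windows of the same length 32.7% held it, which is a share per window and not per gene. The windows shown had 58.8% (Prdx4) to 66.4% (Sod1) G and C, against a median of 52.4% over all windows. The part of this in the matches was not tested. The antioxidant response core was found before Sod1 only, on the antisense strand and starting 56 bases before the start, against 10.2% of all windows. Neither motif separated the genes that were higher from those that were lower. The GC box stood before Sod1 and Sod2 as well as Cat and Prdx4, and the antioxidant response core was not before Sod2. CCAAT, also searched, matched Cat, Gpx4, Prdx4, Sod1 and Sod2, against 33.8% of all windows. TATAAA matched 3 of the 9 genes, Prdx3, Sod1 and Txn1, against 12.4% of all windows. These had ratios above 0, but Sod2, Gpx4, Gpx1 and Prdx2, also above 0, had no match. A match describes the letters and is not evidence of binding.

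Related redox genes were read from 8 lists of 108 genes, of which 93 were on the array and 77 measured. Their median log2 ratio was 0.21. At least 2-fold, 15 of the 77 were higher (19.5%) and 8 lower (10.4%) in primitive HSC, against the 15.6% and 17.6% of all measured genes.

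Glutathione transferases, which couple glutathione to electrophiles, had the highest median of the 8 lists, 0.89. Of 17 measured genes, 14 were higher in primitive HSC, 8 of them at least 2-fold, and 0 were at least 2-fold lower. Among all measured genes 52.7% were higher, 15.6% at least 2-fold higher and 17.6% at least 2-fold lower. The median was between 0.82 and 0.96 under the other scalings except for the hybridisation controls. There it was 0.02 with 9 of 17 higher, against 20.9% of all measured genes. After lowess 3 of the 17 were at least 2-fold higher, against 8 without it and 15.0% of all measured genes after lowess. Those higher by any amount were still 14 of 17, against 51.8% of all measured genes. Gsta4, which detoxifies products of lipid peroxidation, read 2196 in primitive and 467.0 in maturing HSC, a log2 ratio of 2.23. The cytosolic Gstp1 read 28831 and 13347, and the microsomal Mgst1 12230.4 and 5480, log2 ratios of 1.11 and 1.16. Members of the mu class share much of their sequence, so their values may mix: the probe sets of Gstm1 ran from -0.13 to 2.10 and those of Gstm7 from -0.62 to 0.72.

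The list for glutathione synthesis and recycling, which also holds cystine uptake and gamma-glutamyl hydrolysis, had a median of -0.48 over 8 measured genes, with 6 of 8 lower in primitive HSC. Named after their values were seen, as partners of Gclc, the modifier subunit Gclm was at least 1.67-fold lower, the synthetase Gss had a bound of -0.48 and the cystine transporter Slc7a11 stood at -0.87. Its heavy chain Slc3a2 read 4175 in primitive and 7104 in maturing HSC (-0.77). The reductase Gsr, also named after its values were seen, was higher in primitive HSC by at least 1.71-fold. The only gene of the list at least 2-fold apart was Ggh, at 1.25, a hydrolase known for cleaving folate polyglutamates and not for making or recycling glutathione.

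In the thioredoxin system 4 of 9 measured genes were higher and 5 lower in primitive HSC, with a median of -0.30. That median is the value of Txn2, a gene named after its values were seen. The 3 measured probe sets of Txn2 disagreed, from -0.30 to 1.601. With the median of probe sets for each gene, the median of the list was -0.13. Txnip, the inhibitor of thioredoxin, read 3664 in primitive and 7662 in maturing HSC, a log2 ratio of -1.06, with a second probe set at a bound of -1.73. Txndc12 was at least 2.17-fold lower and Txnl1 stood at 1.57, with its other measured probe sets down to 0.17. The 3 thioredoxin reductases, named after their values were seen, each had 1 array under the floor, with bounds of 0.30 for Txnrd2, -0.67 for Txnrd3 and -0.76 for Txnrd1. Txndc17 read 8079 and 6012 (0.43), a ratio that became -0.55 under scaling to the hybridisation controls.

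Of the glutaredoxins and methionine sulfoxide reductases 4 were measured, 2 in each direction. Glrx2, the glutaredoxin of mitochondria and nucleus, had an intensity of 9995 in primitive HSC, against 231.2 in maturing HSC, under the floor. Its level was thus higher in primitive HSC by at least 22.7-fold, and each of its 3 probe sets had a ratio of 3.60 or more. Msra stood at -0.13. Among other scavengers only 3 of 9 on the array were measured, and Srxn1, which repairs overoxidised peroxiredoxins, stood at 0.67 and Gpx2 at 0.54, both of which turned negative (-0.30 and -0.44) under scaling to the hybridisation controls.

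NADPH, the final source of electrons for both systems, is supplied by enzymes of which 8 of 10 measured were lower in primitive HSC. Among all measured genes 52.7% had a ratio above 0. The median of the 10 was -0.14, and 3 of them were bounds. Several of the lower ones were close to 0. Named after their values were seen, Pgls and Idh1 had bounds of -0.02 and -0.06, and Nadk stood at -0.19. Nnt, the transhydrogenase of the inner mitochondrial membrane, read 876.7 in primitive and 4383 in maturing HSC, a log2 ratio of -2.32, and its second probe set gave a bound of -2.02. It was the only one at least 2-fold apart. Tkt stood at 0.60 and Taldo1 at -0.09, and Tkt was at -0.04 after quantile normalization and -0.37 under scaling to the hybridisation controls.

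Among 20 regulators and targets of the NRF2 and FOXO factors 13 were higher and 7 lower in primitive HSC, with a median of 0.41 that became -0.56 under scaling to the hybridisation controls. Park7, a sensor of oxidation, read 35562 in primitive and 6478 in maturing HSC, a log2 ratio of 2.46, with a second probe set at 2.76. Fth1, the ferritin heavy chain that stores iron, read 91513 and 21548, a log2 ratio of 2.09, and its second probe set was also higher. Mafg was at 1.84, though its other measured probe set was at -0.12. The 4 genes at least 2-fold lower, named after their values were seen, included Nfe2l2, which encodes NRF2, at 2477 and 8523 (-1.78), and Bach1, its competitor at the same sites, at 1837 and 6273 (-1.77). The others were Hmox2 at -1.29 and Foxo4, at least 2.96-fold lower. These 4 genes, Park7, Fth1 and Mafg kept their sign under every scaling.

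The list for selenoprotein synthesis holds selenoproteins as well as the machinery that makes them, on which Gpx1 and Gpx4 depend. Of the machinery only Sephs2 was measured, and Eefsec, Pstk, Sephs1 and Sepsecs were under the floor on both arrays. The 6 measured genes went 3 in each direction, with a median of 0.15 that became -0.05 after lowess and -0.57 under scaling to the hybridisation controls. Selenok read 48397 in primitive and 14833 in maturing HSC, a log2 ratio of 1.71. Sephs2, which makes the selenium donor, stood at -1.63, and its 3 probe sets ran from -2.47 to -0.41. Selenop stood at 0.36, and at -0.04 after lowess and -0.61 under scaling to the hybridisation controls.

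**Figure D5:**
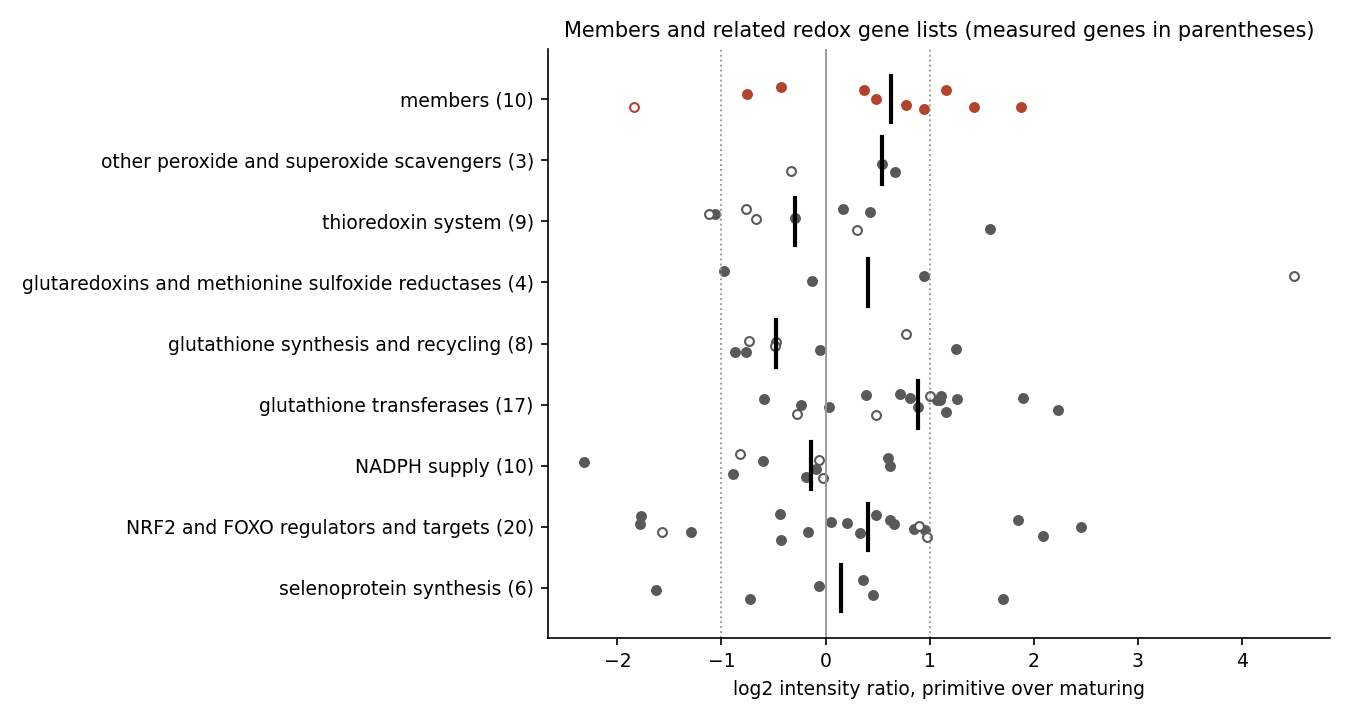
Log2 ratio (primitive over maturing) of each measured gene in the 10 genes (top, red) and in 8 lists of related redox genes, with the number measured beside each name. Open points are bounds, black bars are medians and dotted lines mark 2-fold. The bar of the glutathione transferases is at 0.89. That of glutathione synthesis and recycling is at -0.48, between bounds set by the floor.

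Markers of other blood cells also differed between the arrays, and their part in the ratios above was not tested. Fewer cells of a type and less RNA per cell cannot be told apart in such bulk libraries. Of 13 erythroid markers on the array 6 were measured, 3 in each direction, and their summed intensity was 8076 in primitive and 6376 in maturing HSC. Klf1 read 1651 and 444.5 and Tfrc 1780 and 2526, while Alas2 and Hba-a1, which define later erythroid cells, were under the floor on both arrays. Neutrophil and monocyte markers summed to 169036 in primitive and 100582 in maturing HSC, with 8 of 13 measured genes higher, but 3 were at least 2-fold higher and 5 at least 2-fold lower, 3 of these at least 4-fold, and ratios ran from -2.66 to 1.26. T and natural killer cell markers summed to 58750 and 13793, with 5 of 8 measured genes higher, and 4 more were under the floor on both arrays. Ratios ran from -0.87 (a bound) to 4.64, and Ccl5, the brightest of them, alone read 37795 and 1511. B cell markers summed to 8478 and 30289, with 2 of 8 higher and ratios from -2.71 to 0.78, both bounds. The brightest of these, Jchain, alone read 5661 and 23056.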

How the data were processed

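Both arrays were read as signal intensity on a linear scale, and the authors' tool was MAS5, per the submitters' processing notes, which name no version. The deposited intensities had 2% trimmed means of 1000.6 (primitive) and 1000.4 (maturing), so they had been scaled to a common mean and total RNA per cell cannot be seen. Of 22690 probe sets, 64 were controls, 20380 had 1 gene symbol, 691 several and 1555 none. Genes were named only from probe sets with 1 symbol.

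The arrays were set to 1 common trimmed mean, the floor was set at percentile 50 of non-control probe sets, and log2 was taken last. Each gene was represented by its brightest probe set over both arrays. With 2 arrays and no replicates no test was run, and the number of arrays limits the precision. All 10 genes were named with every probe set. Of each related list, genes at least 4-fold apart and the 2 with the highest mean intensity were named, and others are said to be named after their values were seen or complete a count of 5 or fewer or a group of probe sets that disagree. The 10 genes, the lists and the rule were chosen with earlier results of these data known. A likeness between expression patterns was not computed, since 2 arrays give 1 ratio per gene.

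Other settings tried were no rescaling, centring the median ratio on 0, quantile normalization, lowess (fraction 0.3), scaling to hybridisation controls, floors at percentiles 25 and 75 or none, the median of probe sets, leaving out probe sets named as binding several transcripts, and a 4-fold threshold. The probe set chosen for a gene was kept under each scaling and floor. Steps were tested on simulated data. Promoter windows and symbols came from RefSeq tables of GRCm38.p6. Python 3.11.15, numpy 2.4.6, pandas 2.3.3, statsmodels 0.14.6 and matplotlib 3.10.9 were used.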

Additional observations from a re-analysis of the deposited data

How the results depend on the processing

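No paired analysis was possible because each group had 1 array. Without replicates, a median was taken as moved when it shifted by more than the SD between probe sets divided by the root of the number of genes. The members' median was 0.046 after quantile normalization, -0.017 after lowess and -0.35 under scaling to the hybridisation controls, and it stayed between 0.54 and 0.63 under the others. Scaling to the hybridisation controls left 3 members higher, 0 at least 2-fold higher and 3 at least 2-fold lower, against 20.9%, 4.42% and 38.6% of all measured genes. At 4-fold 0 members were apart in either direction, and with the floor at percentile 75 0 were at least 2-fold lower, since the Gclc bound became -0.62. Scaling to the hybridisation controls, which shifts every gene by the same amount before the floor, gave list medians of -0.42 (other scavengers), -1.22 (thioredoxin system), -0.57 (glutaredoxins), -0.99 (glutathione synthesis), 0.020 (glutathione transferases), -1.11 (NADPH supply), -0.56 (NRF2 and FOXO) and -0.57 (selenoprotein synthesis). With the floor at percentile 25, medians were -0.11 for other scavengers, -0.81 for glutathione synthesis, -0.53 for NADPH supply and -0.59 for selenoprotein synthesis. With no floor they were -0.039 for other scavengers, -0.13 for glutaredoxins, -0.81 for glutathione synthesis, -0.53 for NADPH supply and -0.38 for selenoprotein synthesis. With the floor at percentile 75 the thioredoxin system was at 0.17. A lower floor lets in weak probe sets, and apart from that the cause was not tested. The remaining 95 list values and counts were not taken as moved. Counts had a limit on their fold change and not on an SD, which let small changes pass. After both quantile normalization and lowess, members at least 2-fold higher went from 3 to 2 and members higher from 7 to 5. Among all measured genes those shares were 17.4% and 55.7% after quantile normalization, and 15.0% and 51.8% after lowess. Weak probe sets, such as the second one of Sod1, limit what can be read near the floor.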

Other observations

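Several related redox genes gave different answers by probe set. Txnl1 ran from 0.17 to 1.57 over 3 measured probe sets, Txndc17 from 0.43 to 2.08 over 3, and Glrx from -0.03 to 0.95 over 2. Txn2 ran from -0.30 to 1.601 over 3 measured probe sets, and Selenow from -0.05 to 0.45 over 2. By contrast, the 4 probe sets of Pgd, an NADPH-producing dehydrogenase, all lay between -0.60 and -0.17. The 3 measured probe sets of Srxn1 lay between 0.49 and 0.67.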
